A study of Sus scrofa with 6 samples.

Results

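Serotonin receptor genes encode the membrane proteins through which cells of the cortex respond to serotonin released by axons from the raphe nuclei. Products of the HTR1 genes and of HTR5A couple to inhibitory Gi/o proteins, those of HTR2A and HTR2C to Gq and phospholipase C, and those of HTR4 and HTR7 to Gs and adenylyl cyclase. In the prefrontal cortex these receptors tune the firing of pyramidal cells and interneurons and the release of transmitter from axon terminals. The 10 genes described here are HTR1A, HTR1B, HTR1D, HTR1E, HTR1F, HTR2A, HTR2C, HTR4, HTR5A and HTR7. They were taken by symbol from the 17201 genes listed in each library, and all 10 were found there.

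RNA came from the prefrontal cortex of 6 pigs (Sus scrofa) aged 3 months. The VPA group was animals 391, 392 and 393, whose exposure to valproic acid (VPA) at 75 mg/kg took place in early gestation, per the labels and design text. The control group was animals 401, 402 and 408, labelled as given no treatment. As a drug VPA treats seizures and blocks histone deacetylases, and the series title names an autism model in pigs. The labels used here give neither strain nor litter nor sow, so animals of a group may share a litter.

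Total counts per library ran from 16285517 to 17989032, and levels are given as CPM, the counts scaled to a common total. The summed level of 14 marker genes of striatal projection neurons, a cell type of the region beneath the cortex, differed between libraries. It was 663 CPM in VPA 393, 236 and 254 CPM in the other VPA libraries, and 199 to 225 CPM in controls. Every VPA sum thus lay above every control sum, and VPA 393 stood farthest apart. In edgeR, 8 of the 11 markers tested were higher in VPA at an unadjusted p under 0.05 and 0 were lower. Over all genes tested the shares were 8.69% higher and 7.45% lower. After adjustment edgeR called none of these markers. None of these 14 genes was at 0 in all libraries. Reads of the Y-linked gene EIF1AY numbered 450 to 548 in 4 libraries, 0 in VPA 392 and 2 in control 401, which is 1 library in each group with almost none.

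Levels per gene length spanned more than an order of magnitude across the family, with the Gq-coupled receptors at the top. They are given as FPKM, the authors' counts scaled for gene length and library total, and the mean and SD cover 3 libraries in each group. HTR2C, whose transcript is known for RNA editing and for its abundance in choroid plexus, had 6.50 ± 0.261 FPKM in VPA and 6.04 ± 1.19 FPKM in controls. HTR2A, the receptor of cortical pyramidal dendrites on which psychedelic drugs act, had 4.32 ± 0.383 FPKM in VPA and 4.44 ± 0.403 FPKM in controls. HTR1A, which hyperpolarises pyramidal cells and serves as the autoreceptor of raphe neurons, had 2.95 ± 0.290 FPKM in VPA and 3.07 ± 0.669 FPKM in controls. These were the only 3 members above 3 FPKM in any group.

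The middle of the order was held by HTR1D, HTR7 and HTR1E. HTR1D, which like HTR1B curbs transmitter release from axon terminals, had 2.48 ± 0.142 FPKM in VPA and 1.99 ± 0.178 FPKM in controls. HTR7, a Gs-coupled receptor, had 1.80 ± 0.142 FPKM in VPA and 2.62 ± 0.163 FPKM in controls. HTR1E, which is found in humans but has no counterpart in mice or rats, had 1.57 ± 0.404 FPKM in VPA and 1.53 ± 0.0483 FPKM in controls. HTR1D therefore stood above HTR7 in the VPA group and below it in the control group.

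Levels at the bottom of the order rested on few reads. HTR1B had 1.13 ± 0.191 FPKM in VPA and 1.01 ± 0.0118 FPKM in controls, from 18 to 27 reads per library. HTR4, the Gs-coupled receptor that binds the adaptor p11, had 0.827 ± 0.503 FPKM in VPA and 0.758 ± 0.201 FPKM in controls, from 10 to 30 reads. HTR5A had 0.446 ± 0.152 FPKM in VPA and 0.519 ± 0.172 FPKM in controls, from 8 to 18 reads, and was the single member with under 10 reads in any library. HTR1F, a target of migraine drugs, had 0.188 ± 0.0222 FPKM in VPA and 0.179 ± 0.0814 FPKM in controls, from 17 to 44 reads. The gene lengths behind these FPKM values ran from 1173 bases for HTR1B and 1185 for HTR4 to 9088 for HTR1F, so the order also depends on the transcript ends that the authors' annotation includes.

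**Figure D1:**
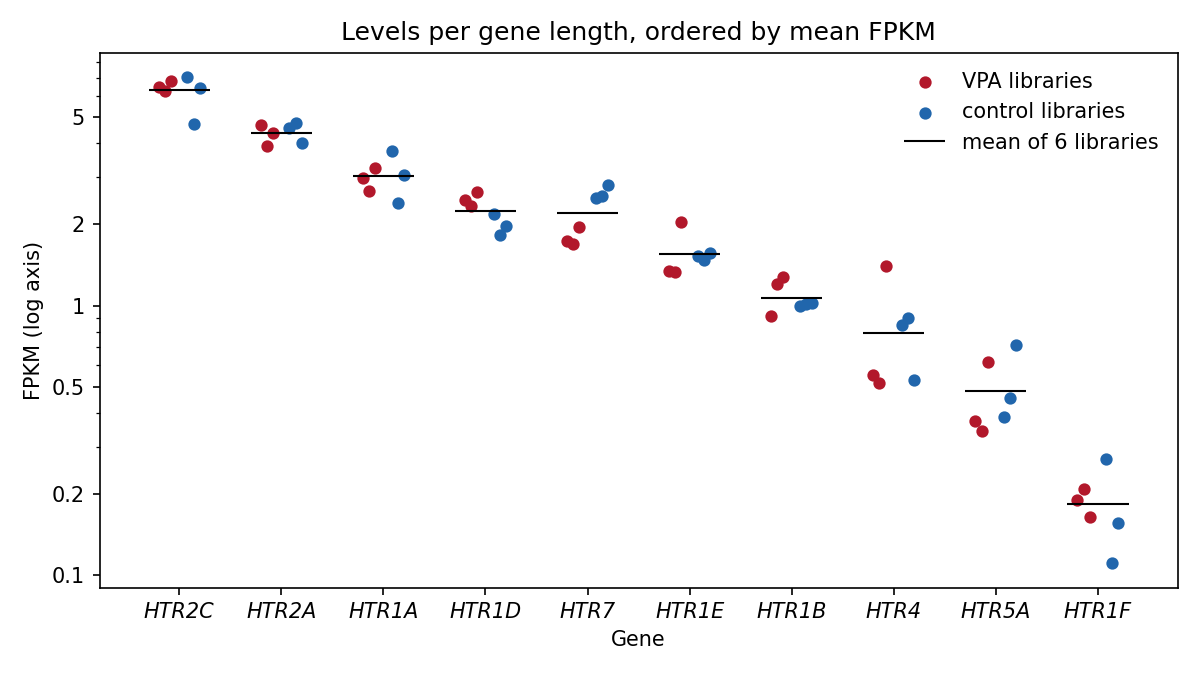
FPKM on a log axis of each serotonin receptor gene, with 1 point per library (VPA red, control blue) and a line at the mean of the 6 libraries. HTR2C and HTR2A lie at the top, HTR1F at the bottom, and the VPA points of HTR7 all lie below its control points.

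Neighbours in this order were compared within each library, by an exact permutation test over all sign flips of the log2 FPKM difference (two-sided, 6 libraries, smallest possible p 0.03125, 9 pairs). The pairs and their upper gene were set by the mean FPKM of these same 6 libraries, VPA and control together. The p values therefore describe the order and are no independent test of it. None of the 9 pairs passed after Benjamini-Hochberg adjustment at 0.05, where a pair can pass only if most pairs reach the smallest possible p. The upper gene was higher in 6 of 6 libraries for HTR2A over HTR1A, HTR1A over HTR1D, HTR1E over HTR1B and HTR5A over HTR1F (exact permutation p = 0.03125 each, adjusted p = 0.0703). It was higher in 5 of 6 libraries for HTR2C over HTR2A, HTR7 over HTR1E, HTR1B over HTR4 and HTR4 over HTR5A (exact permutation p = 0.0625 each, adjusted p = 0.0703). The library against the order in the top pair was control 402, where HTR2C stood at 0.990 times HTR2A in FPKM, against 1.38 to 1.60 times in the other 5. HTR1D exceeded HTR7 in 3 of 6 libraries, the VPA ones (exact permutation p = 0.938), and the place of the 2 genes was exchanged when any 1 VPA library was left out.

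The summed level of the family differed between groups by less than the spread within them. Summed over the 10 genes, it reached 22.2 ± 2.04 FPKM in VPA and 22.2 ± 1.89 FPKM in controls (SD, n = 3 each). HTR2A and HTR2C together made up 45.5% to 51.4% of that sum in the 6 libraries, and the 5 HTR1 genes 33.8% to 38.2%. HTR4 and HTR7 made up 11.7% of the sum on average in VPA and 15.3% in controls. The HTR1A to HTR2A ratio, which sets an inhibitory against an excitatory receptor of pyramidal cells, was 0.685 ± 0.0550 in VPA and 0.698 ± 0.169 in controls, in FPKM.

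No serotonin receptor gene was called different between VPA and control cortex. In edgeR's quasi-likelihood test over 14373 genes, 0 of the 10 members passed a Benjamini-Hochberg adjusted p of 0.05, beside 0.362% of all genes tested. All 10 passed the filter on low counts. At an unadjusted p under 0.05, 1 member stood lower in VPA, beside 7.45% of all genes tested, and none higher, beside 8.69%. DESeq2 gave 6 members an adjusted p and limma-voom all 10, and neither called one. Fold changes were above 0 for 6 members and below 0 for 4, with a median of 0.04 on the log2 scale, against 0.0018 over all genes tested. The groups did not overlap for 2 of the 10, HTR7 and HTR1D, beside 21.2% of all genes tested.

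**Figure D2:**
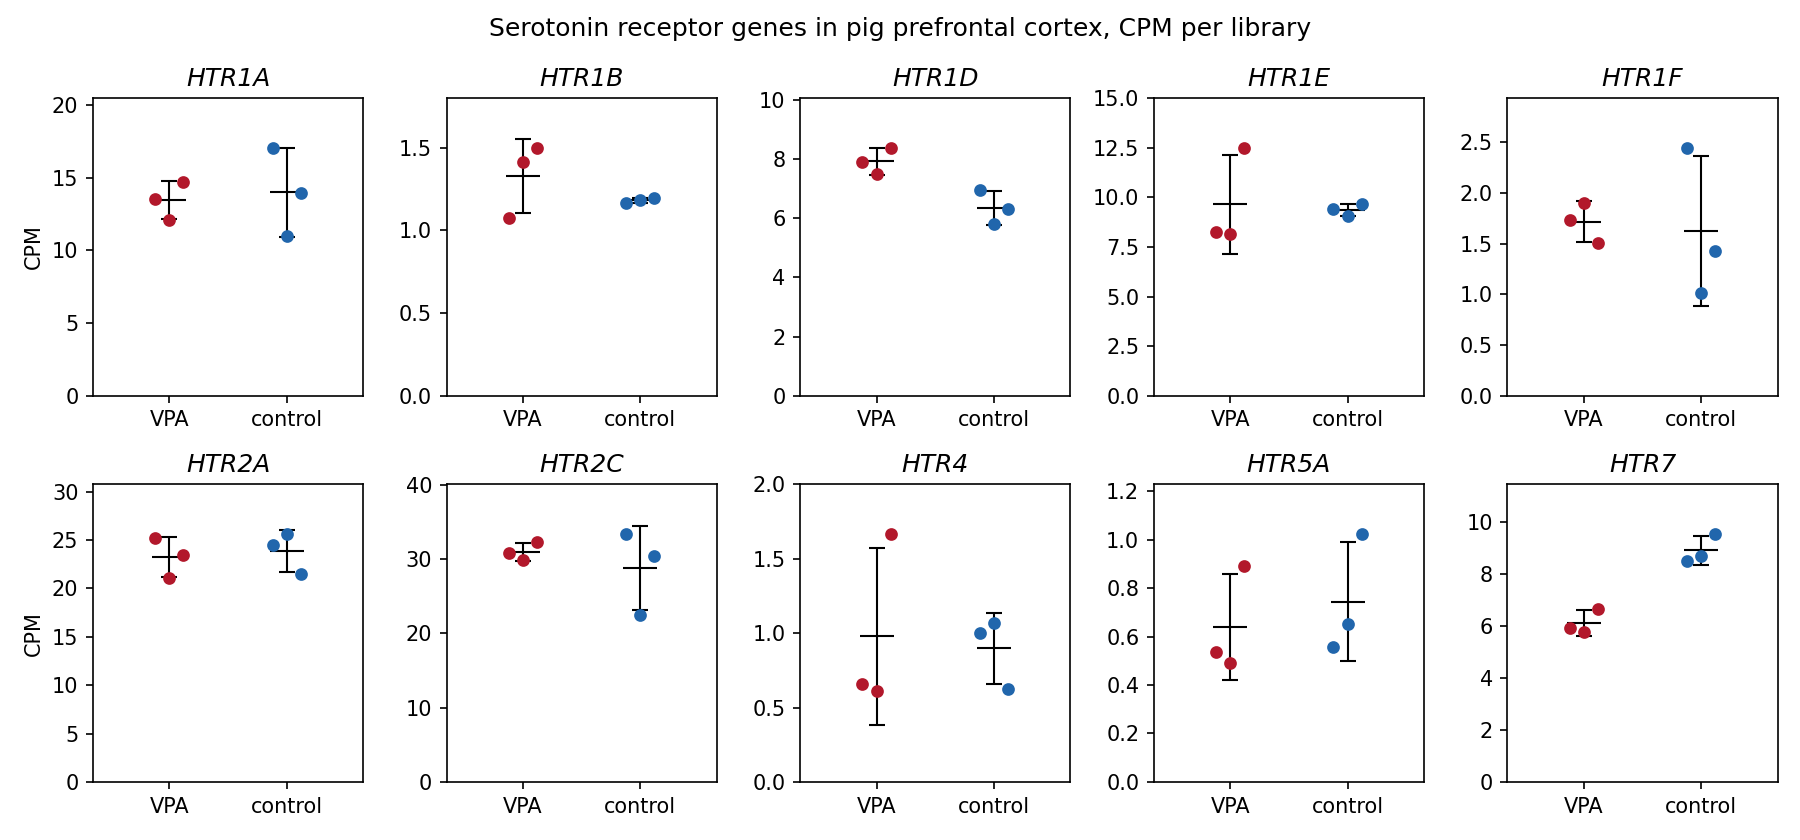
CPM of each serotonin receptor gene by library (points), with the group mean and SD (bars), VPA left and control right in each panel and a separate axis from 0 for each gene. The groups are apart for HTR7, at 5.77 to 6.67 CPM in VPA and 8.51 to 9.56 CPM in controls, and for HTR1D, and overlap in the other 8 panels.

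HTR7 was the member with the lowest p. Its level was 5.92, 5.77 and 6.67 CPM in VPA 391, 392 and 393, against 8.51, 8.72 and 9.56 CPM in controls 401, 402 and 408. All 3 VPA libraries lay below all 3 controls, with 94 to 120 reads in VPA and 147 to 168 in controls. Group means were 6.12 ± 0.483 CPM in VPA and 8.93 ± 0.555 CPM in controls, and the spread within each group (7.89% in VPA and 6.22% in controls) was below the 9.79% and 8.01% that counting alone gives at these depths. The log2 fold change was -0.56 ± 0.14 (SE), or 0.680-fold with a 95% interval of 0.553 to 0.837, and missed the threshold (edgeR, Benjamini-Hochberg adjusted p = 0.093). By that test HTR7 took rank 290 of the 14373 genes. Over the alternatives that keep all 6 libraries, its adjusted p ran from 0.081 to 0.17. In bulk tissue, fewer cells of a type and less RNA per cell cannot be told apart.

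Neuronal marker sums differed by less than HTR7 did. The summed level of 9 glutamatergic neuron markers was 5516 to 5733 CPM in VPA and 5815 to 5969 CPM in controls, a log2 ratio of -0.07. Per 1000 CPM of those markers, HTR7 stood at 1.08 ± 0.109 in VPA and 1.51 ± 0.0792 in controls, groups that again did not overlap (log2 ratio -0.48). Summed interneuron markers overlapped between groups, at 1323 to 1414 CPM in VPA and 1306 to 1366 CPM in controls, and HTR7 per 1000 CPM of them was 4.45 ± 0.359 in VPA and 6.69 ± 0.436 in controls. Markers of oligodendrocytes, their precursors and astrocytes lay the other way from HTR7. At an unadjusted p under 0.05 in edgeR, 9 of 12 oligodendrocyte, 4 of 7 precursor and 5 of 8 astrocyte markers were higher in VPA. Among them 0 were lower, where 8.69% of all genes tested were higher and 7.45% lower. Of 9 microglia markers 2 were higher and 0 lower. Microglia sums overlapped, at 429 to 441 CPM in VPA and 348 to 442 CPM in controls. After adjustment edgeR called none of these glial markers. Per 1000 CPM of astrocyte markers, HTR7 stood at 0.683 ± 0.106 in VPA and 1.13 ± 0.106 in controls (log2 ratio -0.72). Per 1000 CPM of oligodendrocyte markers it stood at 0.332 ± 0.050 in VPA and 0.598 ± 0.10 in controls (log2 ratio -0.85). The part of glial markers in the HTR7 values was not tested. Without VPA 393, the library with the highest summed striatal markers, the log2 fold change of HTR7 was -0.62 (edgeR adjusted p = 0.0997). With the presence of EIF1AY reads as a covariate it was -0.56.

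HTR1D lay the other way. It had 7.89, 7.49 and 8.40 CPM in VPA 391, 392 and 393, against 6.95, 5.81 and 6.31 CPM in controls 401, 402 and 408. The lowest VPA library was above the highest control by less than 1 CPM, and reads numbered 122 to 151 in VPA and 98 to 125 in controls. Its log2 fold change was 0.31 ± 0.14, with a 95% interval of -0.0016 to 0.61 (edgeR, adjusted p = 0.31). Per 1000 CPM of glutamatergic markers HTR1D stood at 1.40 ± 0.109 in VPA and 1.08 ± 0.110 in controls, and those groups did not overlap. Against interneuron markers, the groups overlapped, at 5.77 ± 0.408 in VPA and 4.78 ± 0.532 in controls per 1000 CPM. Against oligodendrocyte markers they also overlapped, at 0.430 ± 0.0538 in VPA and 0.421 ± 0.0250 in controls (log2 ratio 0.028). Per 1000 CPM of astrocyte markers, whose sum was 8318 to 9638 CPM in VPA and 7659 to 8356 CPM in controls, HTR1D was 0.884 ± 0.117 in VPA and 0.805 ± 0.102 in controls, with overlapping groups. The part of glial markers in the HTR1D values was not tested.

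The Gq-coupled receptor genes were measured most precisely. HTR2A had 25.2, 21.1 and 23.4 CPM in the VPA libraries, against 24.5, 25.6 and 21.4 CPM in controls. The groups overlapped almost entirely, with a log2 fold change of -0.05 and a 95% interval of -0.27 to 0.17 (edgeR, adjusted p = 0.84), so that a rise above 1.13-fold or a fall below 0.827-fold lay outside the interval. HTR2C had 30.8, 29.8 and 32.3 CPM in the VPA libraries, against 33.4, 22.5 and 30.5 CPM in controls. Control 402 was low and the other 5 libraries lay within 4 CPM of each other. Its log2 fold change was 0.09, with an interval of -0.18 to 0.37 (edgeR, adjusted p = 0.77), and -0.06 without control 402. Summed choroid plexus markers stood at 356 to 398 CPM in VPA and 294 to 324 CPM in controls. Of the 9 such markers tested, 5 had fold changes above 0 and 4 below. At an unadjusted p under 0.05 in edgeR, 3 were higher and 2 lower, beside 8.69% and 7.45% of all genes tested. After adjustment edgeR called 1 of the 9, higher in VPA, beside 0.362% of all genes tested. The part of choroid plexus RNA in the HTR2C values was not tested.

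**Figure D3:**
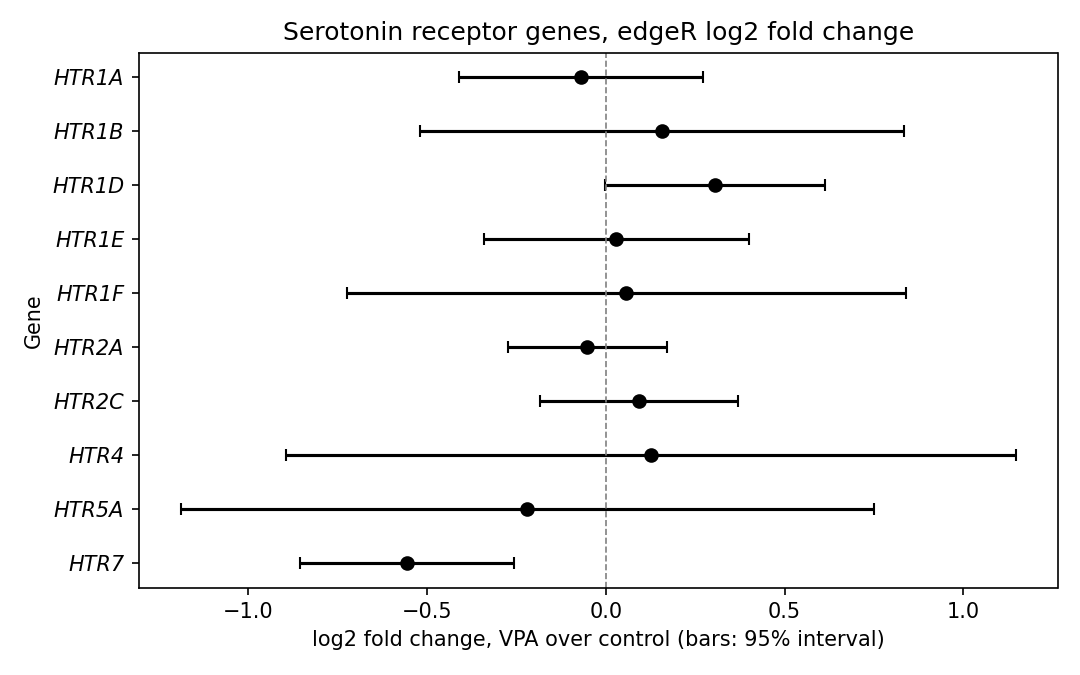
Log2 fold change of VPA over control from edgeR for each serotonin receptor gene, with bars for the 95% interval, which is not adjusted for the number of genes. Only the interval of HTR7, from -0.85 to -0.26, leaves out 0, and the intervals of HTR4, HTR5A, HTR1F and HTR1B are the 4 widest.

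Among the other HTR1 genes the libraries differed within groups as much as between them. HTR1A had 13.5, 12.1 and 14.7 CPM in the VPA libraries, against 17.1, 11.0 and 13.9 CPM in controls. The controls thus spanned the VPA range on both sides, and the log2 fold change was -0.07 with a 95% interval of -0.41 to 0.27. HTR1E had 8.25, 8.17 and 12.5 CPM in the VPA libraries, against 9.39, 9.08 and 9.67 CPM in controls. VPA 393 lay above every control and the other 2 VPA libraries below every control, so the log2 fold change of 0.03 was -0.20 without VPA 393. HTR1B had 1.08, 1.41 and 1.50 CPM in the VPA libraries, against 1.17, 1.19 and 1.19 CPM in controls (log2 fold change 0.16, 95% interval -0.52 to 0.83). HTR1F had 1.73, 1.90 and 1.50 CPM in the VPA libraries, against 2.45, 1.01 and 1.42 CPM in controls, which overlapped (log2 fold change 0.06, 95% interval -0.73 to 0.84).

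HTR4 and HTR5A had few reads and wide intervals. HTR4 had 0.658, 0.614 and 1.67 CPM in the VPA libraries, against 1.0, 1.07 and 0.626 CPM in controls. VPA 393 was the highest of the 6, and the log2 fold change of 0.13 (95% interval -0.89 to 1.15) became -0.50 without it. HTR5A had 0.538, 0.491 and 0.890 CPM in the VPA libraries, against 0.556, 0.652 and 1.02 CPM in controls, with overlapping groups. Its log2 fold change was -0.22, with a 95% interval of -1.19 to 0.75. On the fold scale the intervals ran from 0.538 to 2.21 for HTR4 and from 0.438 to 1.68 for HTR5A. The spread of HTR4 between VPA libraries was 60.9%, where counting alone gives 24.3%, and that of HTR5A was 34.0%, where counting gives 30.2%.

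Some libraries stood high or low for several members at once. VPA 393 held the highest CPM of HTR1B, HTR1D, HTR1E and HTR4, beside its summed striatal markers of 663 CPM. The part of striatal RNA in these 4 values was not tested. Control 402 held the lowest CPM of HTR1A, HTR1D, HTR1F and HTR2C but the highest of HTR2A, and control 401 the highest of HTR1A, HTR1F and HTR2C. Control 402 also had the lowest sum of oligodendrocyte markers, at 13115 CPM, against 14782 and 17632 CPM in the other controls, and VPA libraries had 17109 to 19267 CPM. VPA 392 was lowest for HTR1E, HTR2A, HTR4, HTR5A and HTR7.

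**Figure D4:**
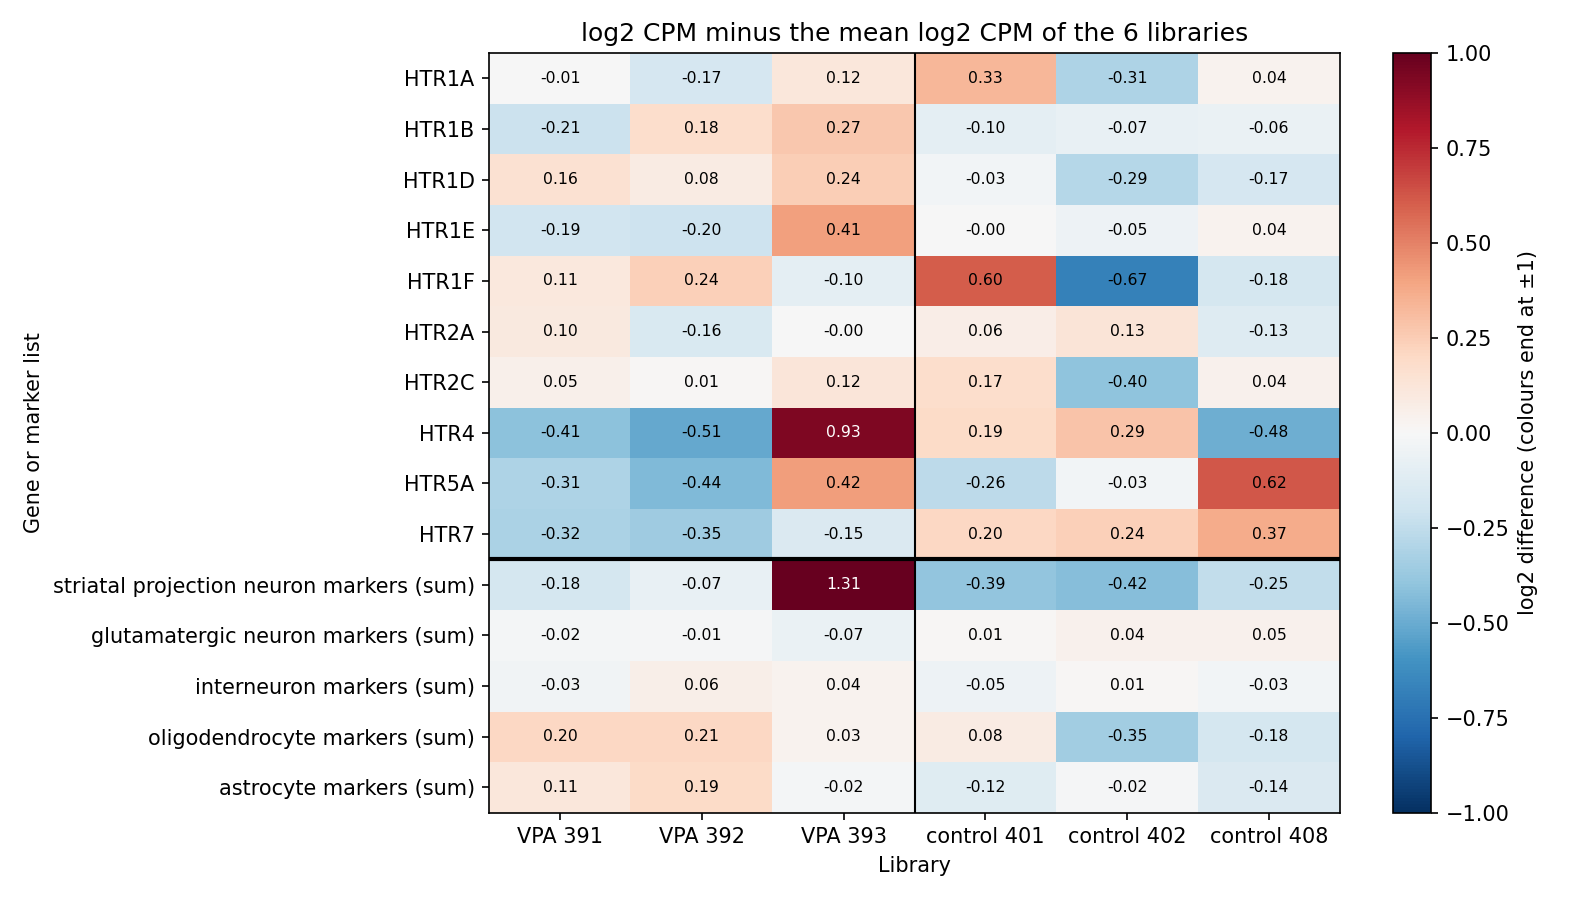
Log2 CPM of each serotonin receptor gene, and of the summed CPM of 5 marker lists, minus the mean of the 6 log2 values of that row, with VPA libraries left of controls and red for values above the mean. HTR7 is below its mean in the 3 VPA libraries and above it in the 3 controls, and VPA 393 stands out in HTR4 (0.93) and the striatal markers (1.31).

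By the likeness of their profile over the 6 libraries, the genes nearest to HTR7 were KCNG1, which encodes a modulatory potassium channel subunit, and CORO2A, a coronin gene. Their root mean square difference from HTR7 in centred log2 CPM was 0.083 and 0.085, where the median over 10200 genes with at least 10 CPM was 0.30. Those nearest to HTR1D were MPPED2 (0.029) and MDC1 (0.035), where the median was 0.20. These are descriptions over 6 libraries, and the closest of so many genes lie near by selection.

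Other serotonin receptor genes listed in the libraries were HTR2B, HTR3A, HTR3B and HTR6, and none of the 4 was called. HTR6, the third Gs-coupled receptor gene of the family, had 3.17, 3.68 and 3.34 CPM in the VPA libraries, against 5.39, 4.75 and 4.61 CPM in controls. As for HTR7, all 3 VPA libraries lay below all 3 controls (log2 fold change -0.55 ± 0.18, edgeR adjusted p = 0.18). HTR3A, a subunit of the serotonin-gated ion channel of interneurons, had 5.24 ± 0.484 CPM in VPA and 6.07 ± 1.31 CPM in controls (log2 fold change -0.22, adjusted p = 0.61). HTR2B had 0.836 ± 0.382 CPM in VPA and 0.977 ± 0.221 CPM in controls (log2 fold change -0.23, adjusted p = 0.84).

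Genes that make, move and break down serotonin gave 0 calls among 15 tested, with 11 fold changes above 0. DDC, the decarboxylase of serotonin and dopamine synthesis, had 1.91, 4.18 and 4.45 CPM in the VPA libraries, against 6.89, 11.3 and 8.59 CPM in controls. Its groups did not overlap and its log2 fold change was -1.35 ± 0.28 (edgeR, adjusted p = 0.067). MAOA, the oxidase that breaks down serotonin, had 84.2, 95.6 and 107 CPM in the VPA libraries, against 80.7, 77.9 and 70.7 CPM in controls. All VPA libraries were above all controls there (log2 fold change 0.31 ± 0.083, adjusted p = 0.11). The vesicular transporter gene SLC18A1 had 2.89 ± 0.509 CPM in VPA and 1.69 ± 0.609 CPM in controls (log2 fold change 0.76, adjusted p = 0.25).

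Downstream of the receptors, 33 genes of G proteins and effectors and 20 of receptor partners and regulators were tested, and 0 were called in either list by edgeR. Of the 33, 8 were lower and 1 higher at an unadjusted p under 0.05, beside the shares of 7.45% and 8.69% over all genes. PRKCB, a protein kinase C gene of the Gq pathway, had 782 ± 43.4 CPM in VPA and 913 ± 26.4 CPM in controls (log2 fold change -0.24 ± 0.052, adjusted p = 0.073). PLCB1, the phospholipase C of that pathway, had 400 ± 29.6 CPM in VPA and 463 ± 8.64 CPM in controls (-0.23 ± 0.056, adjusted p = 0.097). KCNJ9, a subunit of the potassium channel opened by Gi/o-coupled receptors, had 175 ± 5.13 CPM in VPA and 209 ± 18.3 CPM in controls (-0.26 ± 0.066, adjusted p = 0.10).

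RGS4, which speeds the shut-off of Gi/o and Gq signals, had the lowest p of the 72 pathway genes tested. It had 826, 784 and 819 CPM in the VPA libraries, against 976, 967 and 933 CPM in controls. The groups were apart by more than 100 CPM (log2 fold change -0.26 ± 0.047, edgeR adjusted p = 0.054). RGS2, which acts on Gq, had 42.2 ± 3.09 CPM in VPA and 52.5 ± 1.78 CPM in controls (-0.33 ± 0.074, adjusted p = 0.077). DEAF1, a transcriptional regulator of HTR1A, had 123 ± 5.81 CPM in VPA and 108 ± 6.68 CPM in controls (0.18 ± 0.062, adjusted p = 0.19). Pathway genes called by DESeq2 included DDC, KCNJ9, PLCB1, PRKCB, RGS2 and RGS4, lower in VPA, and MAOA, higher in VPA. In all, DESeq2 called 8 of the 63 pathway genes with an adjusted p, beside 444 of 12198 genes over the whole table.

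**Figure D5:**
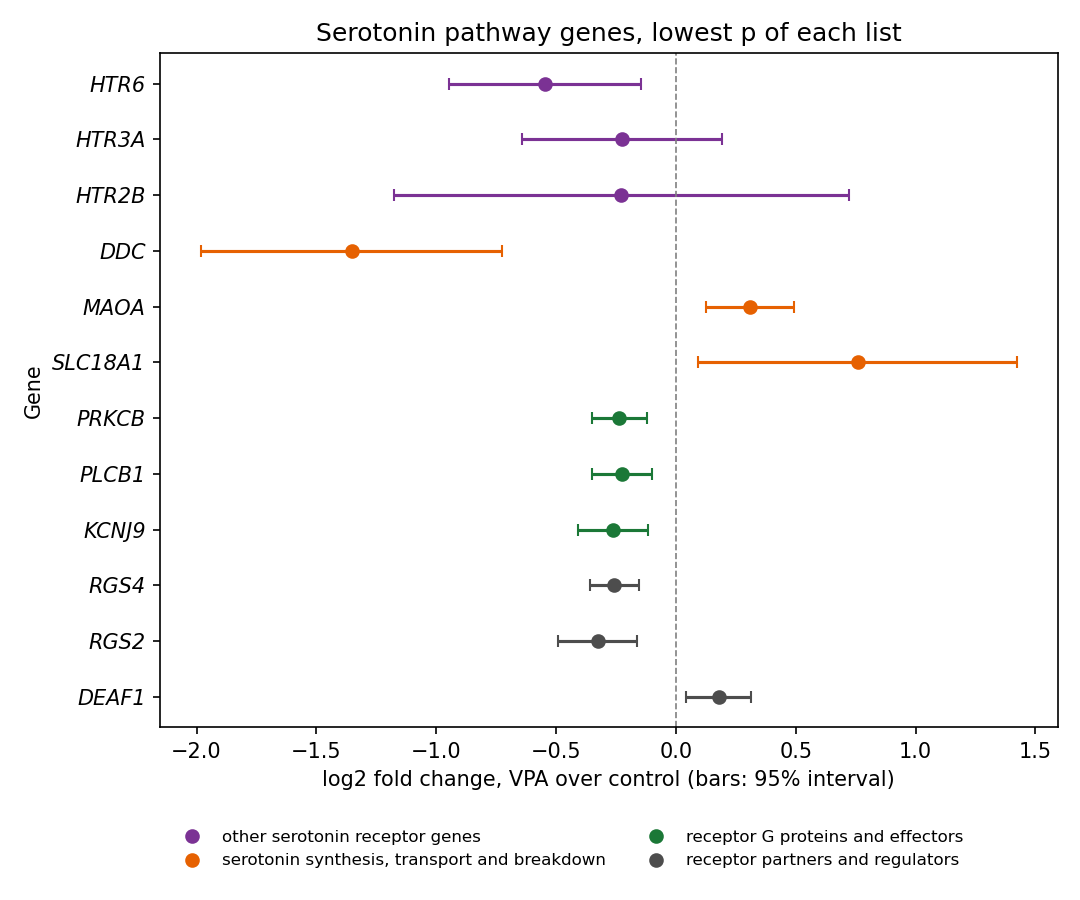
Log2 fold change of VPA over control from edgeR for the 3 genes with the lowest p in each of 4 serotonin pathway lists, with bars for the unadjusted 95% interval and colour for the list. DDC lies farthest from 0 at -1.35, and none passed the adjusted threshold in edgeR.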

How the data were processed

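For each of 6 libraries the authors deposited 1 file of raw gene counts and 1 of FPKM, per the file headers and names. Per the labels' protocols, RNA extraction used TRIzol and library construction a VAHTS Universal V6 kit. How reads were aligned and counted, on which build and with which strand setting, is not stated in these sources, so no coordinates are printed. All 97071 nonzero FPKM values equalled the count over the file total and a whole-number gene length (relative tolerance 0.001), so both units hold 1 measurement. The 10 members matched RefSeq symbols of the pig. Of the listed names, 24 had been turned into dates; they stayed in library sizes.

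Counts were fitted in R 4.3.3 with edgeR 4.0.16 (filterByExpr defaults, 14373 genes kept; TMM factors 0.993 to 1.01; glmQLFit and glmQLFTest, no covariate; 4 residual degrees of freedom), with Benjamini-Hochberg adjustment over all genes tested at 0.05. Standard errors come from the F statistic. CPM uses file totals. The common biological coefficient of variation was 9.01%. The script was tested on simulated data. Alternatives used RLE, upper quartile or no scaling factors, other filters, DESeq2 1.42.0, limma 3.58.1 (on counts with voom; on log2(FPKM + 1) or log2(FPKM + 0.1) with a mean-variance trend), robust dispersion, EIF1AY as a covariate, and each library left out.

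The members and lists were chosen with earlier results of these data known. Named genes are all members, the 3 pathway genes with the lowest p in each list without calls, and the 2 genes nearest in profile to each member whose groups were apart at a mean of 1 CPM or more; others are named where DESeq2 called them or where they describe a library. Some results are not reported here. Intervals cover the spread between animals, and 1 CPM stood for 16.3 to 18.0 reads.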

Additional observations from a re-analysis of the deposited data

How the results depend on the processing

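None of the 10 receptor genes was called under any alternative run, although DESeq2 gave an adjusted p to only 6 of them, and the filters at 1 CPM and 0.5 FPKM kept 8. Over the 6 fits with 1 library left out, the log2 fold change of HTR7 ran from -0.62 to -0.50 (edgeR adjusted p from 0.096 to 0.26), and that of HTR1D from 0.24 to 0.36. The sign of 7 others turned in at least 1 such fit, and in none that kept all libraries. Their ranges were -0.22 to 0.088 for HTR1A, -0.20 to 0.13 for HTR1E, -0.19 to 0.47 for HTR1F, -0.13 to 0.013 for HTR2A, -0.062 to 0.20 for HTR2C, -0.50 to 0.36 for HTR4 and -0.53 to 0.081 for HTR5A. Each of these fits holds fewer samples.

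The count of 52 called genes over the whole table was 141 without the low-count filter, 444 in DESeq2, 168 with robust dispersion, 30 in limma-voom, 2 in limma on log2(FPKM + 1) and on log2(FPKM + 0.1), 1 on log2(FPKM + 1) without a filter, and 0 to 66 with 1 library left out. Of the pathway genes, none in the edgeR test, 2 were called without the filter (DDC and RGS4), 8 in DESeq2, 1 in limma-voom (RGS4), 2 with robust dispersion (PRKCB and RGS4), 1 with the EIF1AY covariate (RGS4) and 0 to 1 with 1 library left out (KCNJ9 without control 401). The cause was not tested. The count of neighbouring pairs past the threshold was 0 in every alternative. With 5 libraries the smallest possible p is 0.0625, so no pair could pass in those runs and their 0 was fixed in advance. No paired analysis was possible because the animal numbers of the groups are not shared. For HTR1B, HTR1F, HTR4 and HTR5A counting alone gives a spread of 18.6% to 30.2% per library, and the spread between animals exceeded it by most for HTR4 in VPA (60.9%) and HTR1F in controls (45.5%).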

Other observations

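TPH2, the enzyme of serotonin synthesis in neurons and a gene named after its values were seen, had 19, 14 and 17 reads in VPA 391, 392 and 393, against 17, 1 and 1 reads in controls 401, 402 and 408. It was near 0 in 2 of 3 controls, and control 401 lay within the VPA range (edgeR adjusted p = 0.38). SLC6A4, the serotonin transporter gene, likewise named after its values were seen, had 19, 17 and 12 reads in the VPA libraries, against 13, 16 and 5 reads in controls, with overlapping groups.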
